A study of Oryza sativa with 46 samples.

Results

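Abscisic acid is made and broken down in rice by the products of a small set of genes, and 7 of them were followed across 8 rice genotypes grown with and without salt. The genes are zeaxanthin epoxidase (Os04g0448900), the 9-cis-epoxycarotenoid dioxygenase genes NCED3 (Os03g0645900), NCED4 (Os07g0154100) and NCED5 (Os12g0617400), and the abscisic acid 8'-hydroxylase genes 1 (Os02g0703600), 2 (Os08g0472800) and 3 (Os09g0457100). They were taken by locus identifier alone as 7 of the 29923 loci on the array, and each was represented by 1 probe out of 42477, designed on expressed sequence tags for NCED3 and 8'-hydroxylase 3 and on an mRNA for the others. By their identifiers they lie on chromosomes 4, 3, 7, 12, 2, 8 and 9, in the order given.

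Abscisic acid is the plant hormone that accumulates when water is short or salt is high, closes stomata and switches on protective genes such as those for dehydrins. Its carotenoid precursors are epoxidised by zeaxanthin epoxidase in the plastid, then cleaved by an NCED enzyme, which is generally regarded as the rate-limiting step, and the product is converted to abscisic acid in the cytosol. The 8'-hydroxylases, which are cytochrome P450 enzymes, start its breakdown, so the amount of hormone depends on both sides of this balance.

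Expression was profiled by one-colour hybridization of Cy3-labelled RNA from whole seedlings, roots and shoots together, at 16 days after emergence. Seedlings stood in nutrient solution with 0 mM NaCl or had received 120 mM NaCl for 48 h, reached through a weaker salt step, with calcium chloride added to the medium. Each array held 1 seedling, with 3 arrays for each genotype and salt level, except that IR58 at 0 mM and BRRIdhan 29 at 120 mM had 2, which made 46 arrays in 16 groups. The genotypes were the Indica landrace Pokkali, known as tolerant, the Indica varieties PSBRc50 and IR58 and the Japonica cultivar Banikat, known as moderately tolerant, and the Indica variety BRRIdhan 29, the Japonica cultivar Nipponbare and the wild species Oryza latifolia and Oryza rufipogon, known as susceptible. For seedlings too heavy for the extraction, pieces of root, stem and leaf stood for the whole plant.

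All levels below are log2 values of the scanner's processed signal after quantile normalization, and they are compared only within a probe. RNA came from whole seedlings, so fewer cells of a type and less RNA per cell cannot be told apart. Markers of leaf (small subunit of Rubisco and a chlorophyll a/b binding protein) and of root (RCc3, Lsi1 and Lsi2) were well above background on all 46 arrays, 3 of 3 loci for each organ, and no marker passed the test for salt over all arrays. Their mean level per array ranged from 16.73 to 18.25 for leaf and from 10.97 to 14.66 for root at 0 mM, and from 17.43 to 18.33 and from 11.01 to 14.47 at 120 mM. Between 20914 and 36693 probes were well above background on an array, with the lowest median, 22107, in Oryza latifolia.

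Some arrays stood apart before any of these genes was considered. Over all probes, 8 of the 46 arrays correlated best with arrays of another genotype than the one on their label (r of 0.42 to 0.84, against -0.09 to 0.10 with their own), whereas the other 38 correlated best with their own. These were replicate 3 of PSBRc50 at 120 mM, replicate 2 of IR58 at 0 mM, replicate 2 of BRRIdhan 29 at 0 mM, replicate 3 of Banikat and of Nipponbare at both salt levels, and replicate 2 of Oryza latifolia at 120 mM. They are called the 8 divergent arrays here. Levels of single arrays are listed below in the order of their replicate numbers.

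The labels were also at odds with genes known to respond to abscisic acid. The dehydrin gene Os11g0454300 had a level of 16.21 and 17.70 on replicates 1 and 2 of the arrays labelled Banikat 0 mM, and 6.27 and 7.58 on those labelled Banikat 120 mM. In Nipponbare the corresponding levels were 17.52 and 17.24 with the 0 mM label, and 13.52 and 7.06 with the 120 mM label. In Pokkali, IR58, BRRIdhan 29 and both wild species every array labelled 120 mM lay above every array labelled 0 mM for this gene, and in PSBRc50 only replicate 3 at 120 mM, a divergent array with a level of 4.06, did not. No label was altered. Results are given for all arrays first, then without the 8 divergent arrays, without Banikat and Nipponbare, or without both, and these sets were chosen after the values were seen. Because dehydrins answer to the hormone that the 7 genes make and remove, leaving out Banikat and Nipponbare is not independent of the genes described, and tests without them are no independent evidence.

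Over all arrays, none of the 7 genes passed the test for a mean salt effect at an adjusted p of 0.05, in limma with Benjamini-Hochberg adjustment over all probes, where 1.94% of all probes passed. NCED4 had the largest difference, 1.46 higher on the log2 scale at 120 mM (SE 0.55, higher in 6 of 8 genotypes, adjusted p = 0.145), followed by 8'-hydroxylase 2 at 1.01 (SE 0.30, higher in 7 of 8, adjusted p = 0.0679). With another background correction (normexp), which compresses low signals, both differences were 0.52 (SE 0.19 each, adjusted p = 0.112 and 0.115). The differences of the other 5 genes ran from -0.38 to 0.33. By unadjusted p, 2 of 7 genes were under 0.05, beside 18.1% of all probes. Without the 8 divergent arrays, still 0 of 7 genes passed, beside 2.38% of all probes.

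Among the 6 genotypes without Banikat and Nipponbare the count differed. NCED4 rose by 2.28 (SE 0.57, adjusted p = 0.00743) and 8'-hydroxylase 2 by 1.24 (SE 0.35, adjusted p = 0.0170), in 6 of 6 genotypes each, so that 2 of 7 genes passed beside 16.5% of all probes. In Oryza latifolia only the divergent array was well above background for either gene. In Oryza rufipogon NCED4 was well above background on 1 stressed array and on 0 unstressed ones. With the divergent arrays left out as well, NCED4 rose by 2.54 (SE 0.54, adjusted p = 0.00170), 8'-hydroxylase 2 by 1.12 (SE 0.29, adjusted p = 0.00823) and NCED3 by 0.70 (SE 0.23, adjusted p = 0.0288), and 3 of 7 passed beside 22.9% of all probes. In Oryza latifolia the differences were then 0.07 for NCED4 and 0.29 for 8'-hydroxylase 2, from arrays not well above background. In this last set 2 of the 3 root markers fell too (median of the 3 -0.94), and their part in these results was not tested. Leaving out Banikat alone was enough for NCED4 (adjusted p = 0.0346) and for 8'-hydroxylase 2 (adjusted p = 0.0356), beside 11.4% of all probes, and leaving out Nipponbare alone for 8'-hydroxylase 2 (adjusted p = 0.0280), beside 5.91%.

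**Figure D1:**
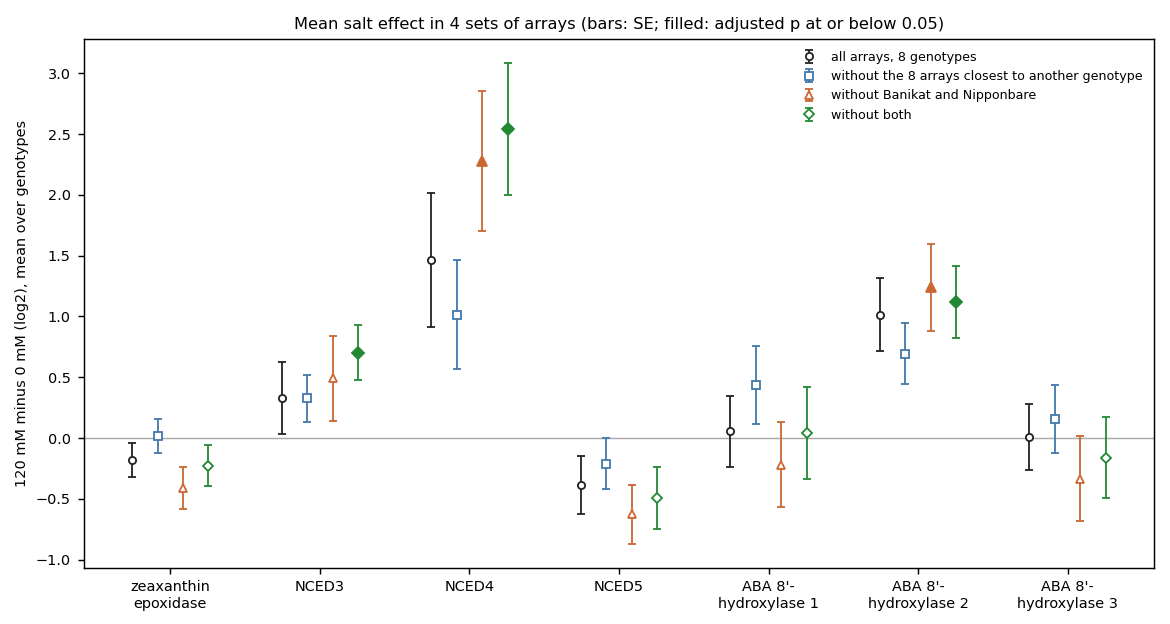
Mean salt effect of each gene, as 120 mM minus 0 mM on the log2 scale averaged over genotypes, in 4 sets of arrays; bars are standard errors and filled symbols have an adjusted p at or below 0.05. NCED4 and 8'-hydroxylase 2 lie above 0 in every set, from 1.02 to 2.54 and from 0.69 to 1.24, but are filled only without Banikat and Nipponbare.

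The first enzyme of the path, zeaxanthin epoxidase, was well above background on 46 of 46 arrays. Its level ranged from 11.42 to 13.90 at 0 mM (median 12.51) and from 11.42 to 14.01 at 120 mM (median 12.41). The mean salt effect was -0.18 (SE 0.14, adjusted p = 0.536), lower at 120 mM in 5 of 8 genotypes. In Pokkali the levels were 13.33, 12.84 and 12.88 at 0 mM and 12.63, 12.50 and 12.64 at 120 mM, without overlap, a difference of -0.42 (SE 0.38). IR58 read 12.25 and 13.25 at 0 mM and 12.05, 11.42 and 11.98 at 120 mM. BRRIdhan 29 had 12.51, 12.65 and 12.42 at 0 mM and 12.32 and 11.42 at 120 mM. In these 3 Indica genotypes the stressed arrays were thus all below the unstressed ones, whereas both Japonica cultivars and Oryza rufipogon had higher means at 120 mM (differences of 0.39, 0.64 and 0.16). The levels of 13.25 and 12.65 came from divergent arrays. Stressed arrays were all lower in 10.0% of cases over all genotypes and probes, and IR58 and BRRIdhan 29 had fewer arrays than the others.

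NCED3, one of the cleavage enzymes, was likewise well above background on all 46 arrays. Its mean salt effect was 0.33 (SE 0.30, adjusted p = 0.607), higher at 120 mM in 7 of 8 genotypes and in 15 of 22 pairs of arrays of 1 genotype and both salt levels that shared a slide. Oryza latifolia held the highest levels. Its arrays read 11.82, 12.18 and 12.04 at 0 mM and 14.58, 9.48 and 14.18 at 120 mM, where the value of 9.48 came from the divergent replicate 2. Over all arrays the salt effect in Oryza latifolia was therefore 0.74 (SE 0.81, adjusted p = 0.614). Without the 8 divergent arrays it was 2.37 (SE 0.53, adjusted p = 0.00875), a 5.16-fold rise, from 3 arrays against 2. The other genotypes stayed between 8.47 and 11.71 on every array, salt effects over all arrays ran from -0.30 in Nipponbare to 0.89 in Oryza rufipogon, and stressed and unstressed arrays overlapped in all 8 genotypes.

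NCED4 was near the limit of detection, well above background on 9 of 23 arrays at 0 mM and 14 of 23 at 120 mM. In Pokkali it read 3.73, 2.82 and 2.92 at 0 mM and 6.69, 6.87 and 1.90 at 120 mM. In PSBRc50 the values were 3.40, 3.90 and 2.80 at 0 mM and 4.83, 7.33 and 2.10 at 120 mM, the last from the divergent array. On the stressed arrays of each of these genotypes, 2 of 3 values were above all unstressed ones.

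IR58 and BRRIdhan 29 were the genotypes in which NCED4 did not overlap between salt levels. Stressed arrays were all higher in 9.30% of cases over all genotypes and probes, and these 2 genotypes had fewer arrays than the others. IR58 had 1.56 and 4.25 at 0 mM, and 7.38, 9.18 and 6.23 at 120 mM, a difference of 4.69 (SE 1.69, adjusted p = 0.470, unadjusted p = 0.00897). Of its unstressed values, 1.56 was not well above background and 4.25 came from the divergent array. BRRIdhan 29 had 1.30, 3.52 and 3.89 at 0 mM, and 5.48 and 6.13 at 120 mM, a difference of 2.90 (SE 1.69, adjusted p = 0.763). Here the only unstressed value well above background, 3.52, came from the divergent array. Neither difference passed the test.

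In the Japonica cultivars NCED4, like the dehydrin, was high on replicates 1 and 2 labelled 0 mM. Banikat read 4.38, 5.87 and 1.34 on the arrays labelled 0 mM, and 1.75, 1.25 and 6.03 on those labelled 120 mM. Nipponbare read 7.53, 7.40 and 2.85 with the 0 mM label, and 4.77, 3.21 and 6.49 with the 120 mM label. In each case replicate 3, a divergent array at both salt levels, was opposite to replicates 1 and 2.

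In the wild species NCED4 was hardly detected. Oryza latifolia had 1.59, 1.60 and 1.50 at 0 mM and 1.79, 5.87 and 1.49 at 120 mM, and only the divergent array with 5.87 was well above background. Oryza rufipogon had 1.40, 1.28 and 3.00 at 0 mM, none of them well above background, and 2.38, 5.61 and 1.31 at 120 mM, of which only 5.61 was. With 1 detected array at 120 mM under each label, the divergent one in Oryza latifolia, and none at 0 mM, no fold is given for either.

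**Figure D2:**
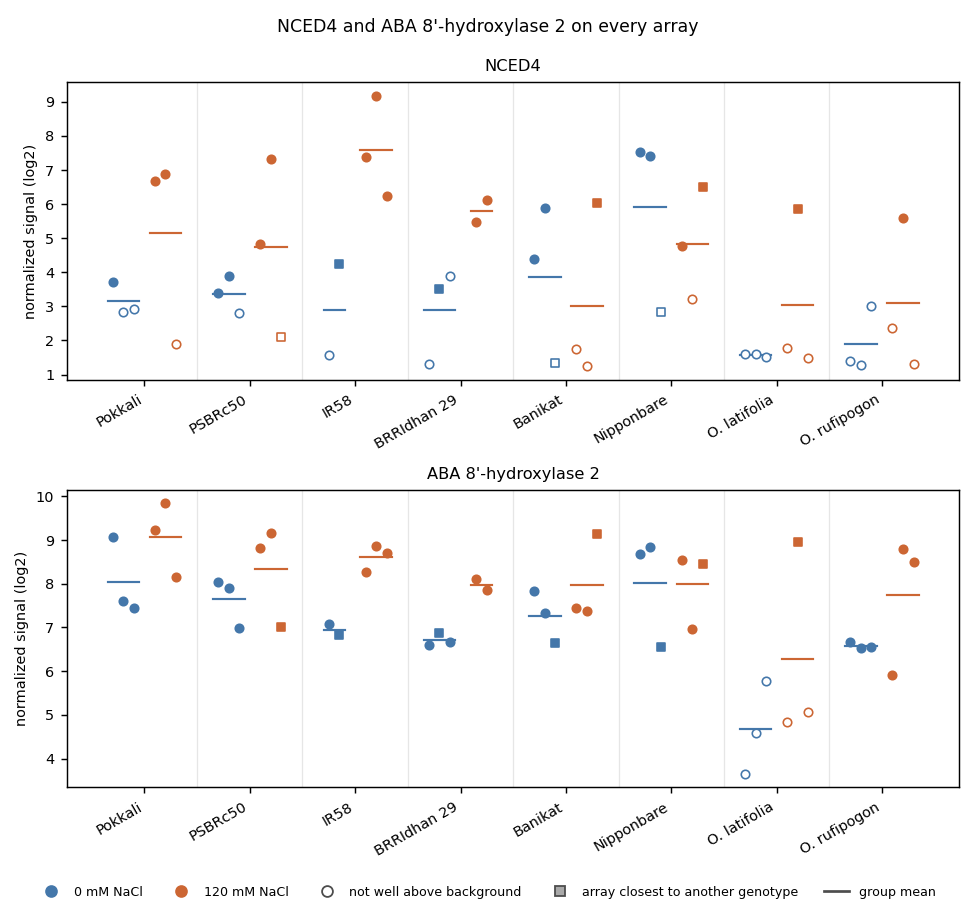
Normalized log2 signal of NCED4 (top) and 8'-hydroxylase 2 (bottom) on each of the 46 arrays, by genotype and salt level, with lines at group means; open symbols are not well above background and squares are the 8 divergent arrays. In IR58 and BRRIdhan 29, which have fewer arrays than the others, all stressed arrays lie above the unstressed ones for both genes. In Banikat and Nipponbare NCED4 is highest on arrays labelled 0 mM among replicates 1 and 2.

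NCED5 was well above background on all arrays, with levels of 5.29 to 9.20 at 0 mM (median 7.95) and 5.90 to 9.74 at 120 mM (median 7.34). The mean salt effect was -0.38 (SE 0.24, adjusted p = 0.414) and its sign differed between genotypes. Oryza rufipogon read 8.64, 9.20 and 7.41 at 0 mM and 6.22, 6.60 and 6.83 at 120 mM, a difference of -1.87 (SE 0.65, adjusted p = 0.400), with no overlap. The same difference passed the test without the 8 divergent arrays, none of which belongs to that species (SE 0.50, adjusted p = 0.0487). It did not pass the limma test with Banikat and Nipponbare left out as well (SE 0.54, adjusted p = 0.0799). BRRIdhan 29 had 7.12, 7.71 (the divergent array) and 8.52 at 0 mM and 6.40 and 6.36 at 120 mM, also without overlap. The opposite order was seen in Oryza latifolia, with 8.78, 8.26 and 8.84 at 0 mM and 9.74, 8.85 (the divergent array) and 9.23 at 120 mM. In Banikat the mean was 1.46 higher with the 120 mM label (SE 0.65, adjusted p = 0.613).

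On the breakdown side, 8'-hydroxylase 1 was well above background on all arrays and had no common direction. Its levels ran from 11.38 to 15.06 at 0 mM and from 11.70 to 15.81 at 120 mM, and the mean salt effect was 0.05 (SE 0.29, adjusted p = 0.948), higher in 4 of 8 genotypes. With each array scaled by its 75th percentile in place of quantile normalization the sign turned, to -0.041. The highest level at 0 mM, 15.06, came from the divergent array of BRRIdhan 29. Single arrays also stood apart within groups, and the cause was not tested. In Pokkali at 120 mM the arrays read 15.81, 12.37 and 11.70, and in Nipponbare at 120 mM 13.30, 15.33 and 12.50. Only IR58 showed no overlap, with 13.02 and 14.43 at 0 mM and 12.83, 12.20 and 12.81 at 120 mM. The level of 14.43 came from its divergent array.

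The 8'-hydroxylase 2 gene ranked ahead of the other genes in the test for the mean salt effect (unadjusted p = 0.00192 in limma). Of the 46 arrays 41 had a signal well above background, and the 5 others were all from Oryza latifolia. Across pairs of arrays sharing a slide it was higher at 120 mM in 17 of 22, with a median difference of 1.19. Among the 17 pairs without a divergent array it was higher in 12. IR58 read 7.07 and 6.82 at 0 mM, and 8.26, 8.85 and 8.71 at 120 mM, a difference of 1.66 (SE 0.92, adjusted p = 0.650). BRRIdhan 29 had 6.60, 6.88 and 6.67 at 0 mM and 8.11 and 7.86 at 120 mM, a difference of 1.27 (SE 0.92, adjusted p = 0.848). Stressed and unstressed arrays did not overlap in these 2 genotypes, which had fewer arrays than the others. Over all genotypes and probes, stressed arrays were all higher in 9.30% of cases. The levels of 6.82 and 6.88 came from divergent arrays.

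In Pokkali the 8'-hydroxylase 2 levels were 9.07, 7.61 and 7.44 at 0 mM and 9.22, 9.84 and 8.15 at 120 mM. PSBRc50 had 8.03, 7.91 and 6.98 against 8.83, 9.17 and 7.01, the last value from its divergent array. Oryza rufipogon had 6.66, 6.53 and 6.55 against 5.92, 8.80 and 8.50. In all 3 genotypes 2 of 3 stressed arrays were above every unstressed array, but the groups overlapped.

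The Japonica cultivars differed again. Banikat had 7.85, 7.33 and 6.63 with the 0 mM label and 7.45, 7.37 and 9.13 with the 120 mM label, and Nipponbare had 8.68, 8.85 and 6.56 against 8.55, 6.97 and 8.45. In Oryza latifolia the values of 3.65, 4.59 and 5.76 at 0 mM were not well above background, nor were 4.84 and 5.07 at 120 mM. The remaining stressed array, the divergent replicate 2, read 8.95. It was the only detected array with this species' label, and it correlated best with PSBRc50 (r = 0.47, against 0.01 with its own label). No fold is therefore given.

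The third hydroxylase was well above background on 45 of 46 arrays and showed a mean salt effect of 0.01 (SE 0.27, adjusted p = 0.994), higher in 4 of 8 genotypes. The largest single difference was in Banikat, with 5.08, 5.13 and 5.47 under the 0 mM label and 7.12, 7.08 and 6.56 under the 120 mM label, a difference of 1.69 (SE 0.74, adjusted p = 0.607). Oryza rufipogon went the other way, from 7.41, 7.93 and 7.38 at 0 mM to 6.30, 5.95 and 7.29 at 120 mM. Both were without overlap, and neither passed the test.

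**Figure D3:**
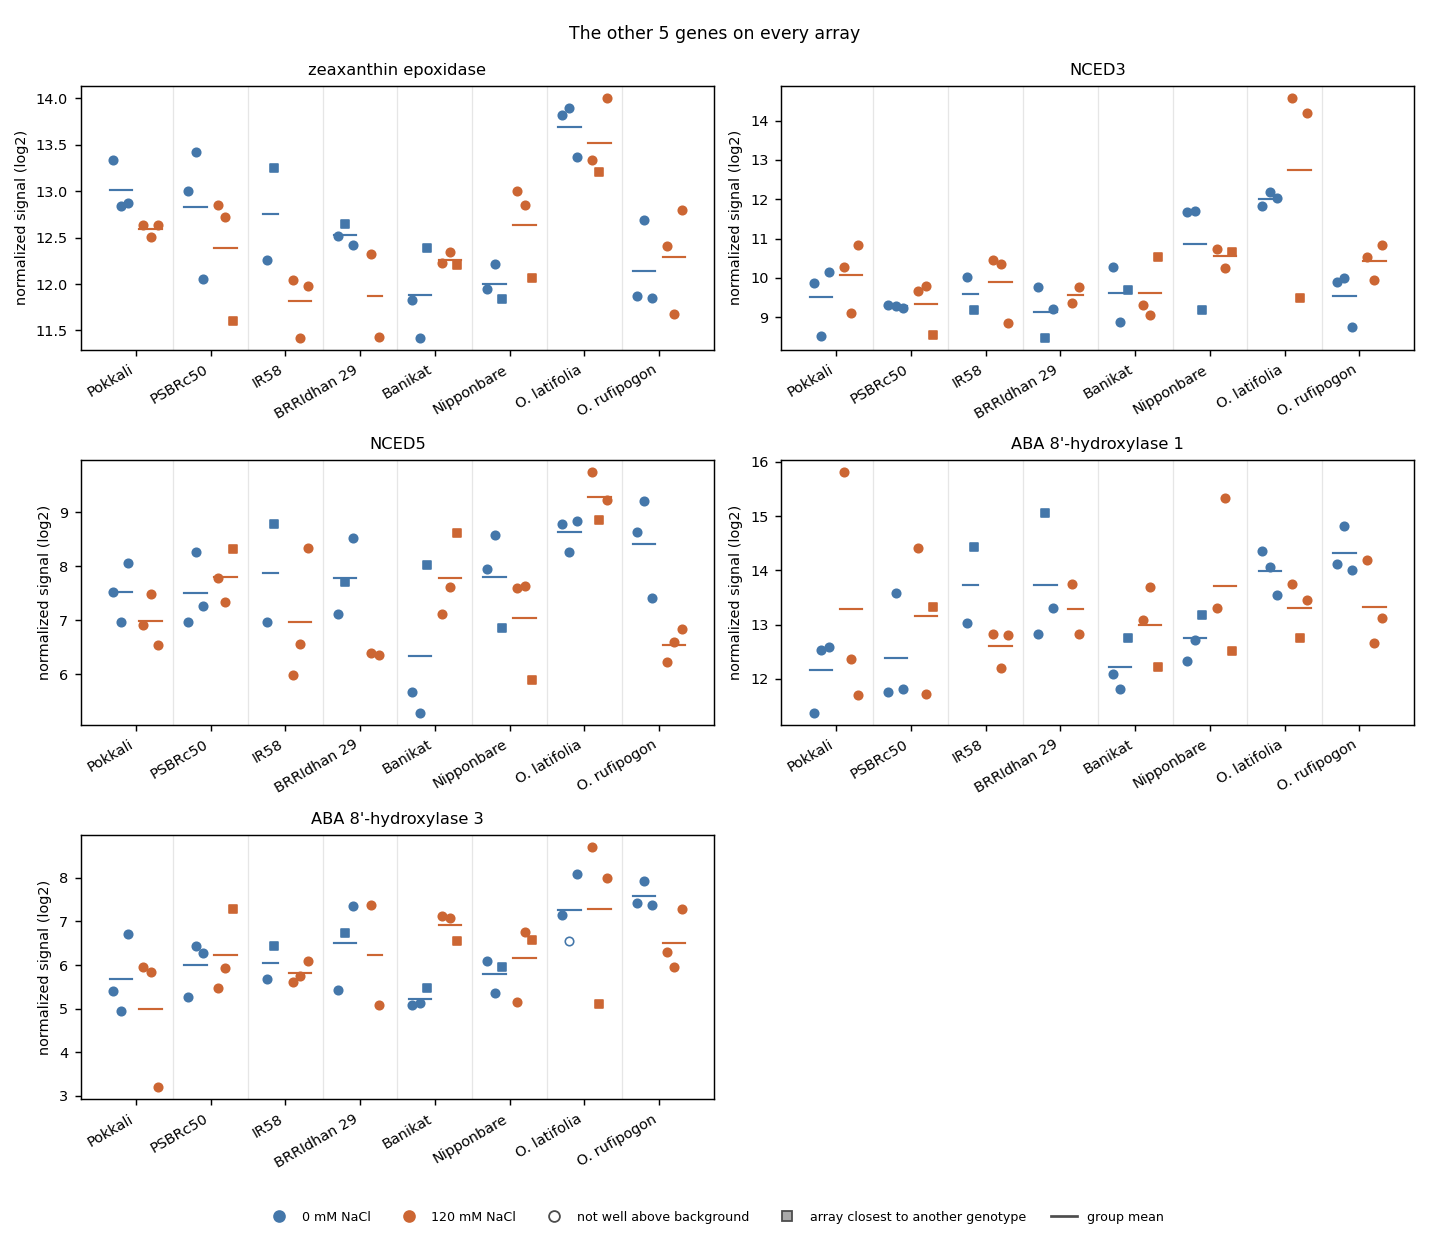
Normalized log2 signal of zeaxanthin epoxidase, NCED3, NCED5 and 8'-hydroxylases 1 and 3 on each of the 46 arrays, by genotype and salt level, with lines at group means; open symbols are not well above background and squares are the 8 divergent arrays. The NCED3 levels of 14.58 and 14.18 in stressed Oryza latifolia stand above all other arrays.

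Taking genotypes singly, 0 of the 56 salt effects (7 genes in 8 genotypes) passed the test over all arrays, where 0.513% of all effects over genotypes and probes passed. By unadjusted p, 5 of 56 were under 0.05, beside 8.14% of all such effects, namely NCED4 and zeaxanthin epoxidase in IR58, NCED5 and 8'-hydroxylase 3 in Banikat and NCED5 in Oryza rufipogon. Without the 8 divergent arrays 2 of 56 passed, NCED3 in Oryza latifolia and NCED5 in Oryza rufipogon, beside 2.69% of all such effects. Stressed and unstressed arrays did not overlap in 13 of 56 cases, 6 of them higher and 7 lower at 120 mM, beside 19.3% over all genotypes and probes (9.30% higher and 10.0% lower), so the share among the 7 genes was near that of the array. In IR58 and BRRIdhan 29, with 2 arrays in 1 group, a lack of overlap arises more readily than with 3 arrays in both groups.

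Whether the salt effect differed between genotypes was tested for each gene with an F test of the 7 differences. Over all arrays no gene passed (0.600% of all probes did), and the lowest adjusted p was 0.314, for NCED5. Without the 8 divergent arrays NCED4 (adjusted p = 0.00678) and NCED5 (adjusted p = 0.0251) passed and NCED3 came near (adjusted p = 0.0549), beside 13.6% of all probes. In that set the salt effect of NCED4 was 6.03 in IR58, 3.20 in BRRIdhan 29 and 2.72 in PSBRc50, but -3.63 in Banikat and -3.48 in Nipponbare. Of the arrays left, none of IR58 or BRRIdhan 29 at 0 mM was well above background for NCED4, nor any of Banikat at 120 mM. The effects in these 3 genotypes are therefore differences from values near the limit of detection, in IR58 from 1 array (1.56). With Banikat and Nipponbare also left out, no gene passed, and NCED4 had an adjusted p of 1.00.

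**Figure D4:**
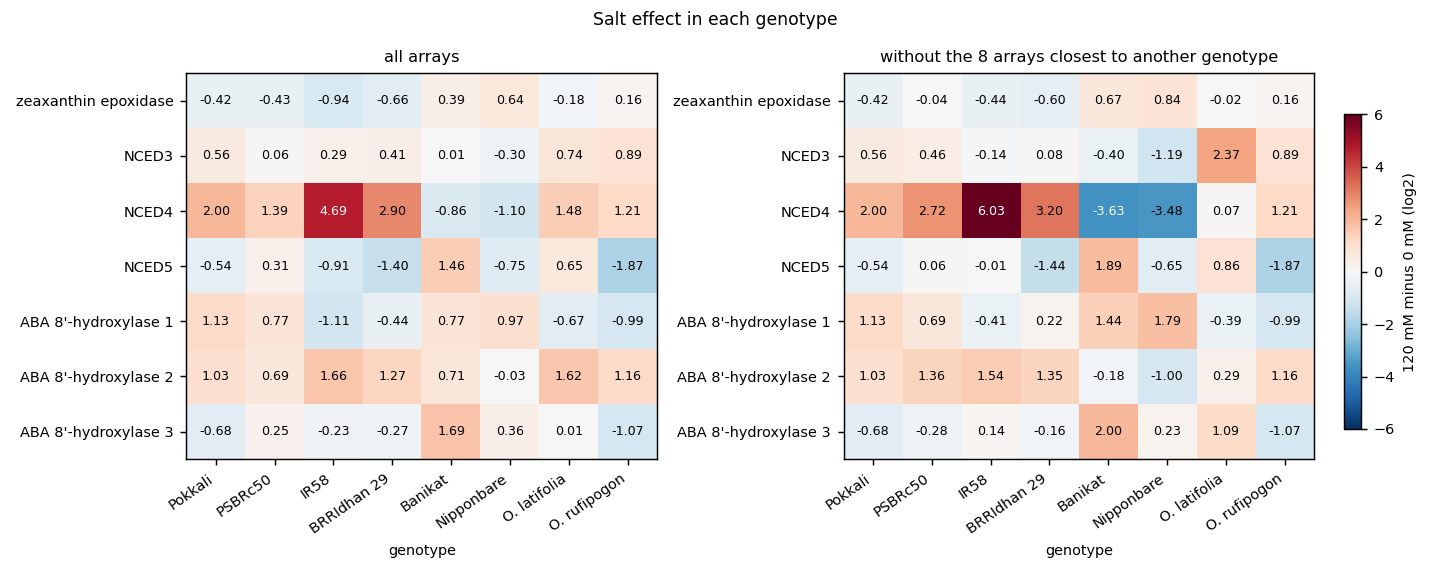
Salt effect of each gene (rows) in each genotype (columns), as 120 mM minus 0 mM on the log2 scale, over all arrays (left) and without the 8 divergent arrays (right). NCED4 runs from -1.10 in Nipponbare to 4.69 in IR58 on the left and from -3.63 in Banikat to 6.03 in IR58 on the right. On the right, no array of IR58 at 0 mM or of Banikat at 120 mM is well above background for NCED4.

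Differences between genotypes in level were called for some of the 7 genes. At 0 mM the F test over the 8 genotypes called 3 of 7 genes, zeaxanthin epoxidase (adjusted p = 0.00204), 8'-hydroxylase 2 (adjusted p = 0.0134) and NCED3 (adjusted p = 0.0299), where 61.9% of all probes were called. At 120 mM it called zeaxanthin epoxidase (adjusted p = 0.0186), NCED3 (adjusted p = 0.0215) and NCED5 (adjusted p = 0.0144), 3 of 7, beside 40.2% of all probes. The share of the 7 genes was below that of all probes at 0 mM and near it at 120 mM. With normexp the call of 8'-hydroxylase 2 at 0 mM was lost (adjusted p = 0.418). Oryza latifolia was at the end of the order in each of these 6 results. It was highest at both salt levels for zeaxanthin epoxidase (13.70 ± 0.29 and 13.51 ± 0.43, SD, n = 3) and NCED3 (12.01 ± 0.18 and 12.75 ± 2.84, SD, n = 3), highest for NCED5 at 120 mM (9.28 ± 0.45, SD, n = 3) and lowest for 8'-hydroxylase 2 at 0 mM (4.67 ± 1.06, SD, n = 3). None of the arrays behind that lowest mean was well above background for 8'-hydroxylase 2. These 6 places at the end of the order were the same with percentile scaling and with normexp. Arrays of this species were dim, with a median 75th percentile of the scanner signal of 382 against 881 to 4045 in the other genotypes, and before normalization its mean NCED5 signal at 120 mM was in place 4 of 8. At 0 mM its NCED5 level was highest after quantile normalization (8.63) but in place 7 of 8 with percentile scaling. The array was built for rice genes, and how well the probes match this wild species was not tested.

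Without Oryza latifolia no gene was called at either salt level, beside 7.12% of all probes at 0 mM and 7.02% at 120 mM. When the 8 divergent arrays alone were left out, 6 of 7 genes were called at 0 mM and 6 of 7 at 120 mM, all but 8'-hydroxylase 1, beside 74.4% and 68.6% of all probes. When Oryza latifolia was left out too, NCED3, NCED4 and NCED5 were called at 0 mM and NCED4 at 120 mM, beside 31.7% and 26.7% of all probes. Leaving out the arrays of replicate 1 left 0 of 7 genes called at both levels, beside 21.7% of all probes at 0 mM and 0.355% at 120 mM.

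Neighbours along the order of the genotypes were compared by whether their arrays overlapped. The share of separated neighbours over all probes was not counted, so the results only describe the 7 genes. For zeaxanthin epoxidase the order at 0 mM was Oryza latifolia, Pokkali (13.02), PSBRc50 (12.83), IR58 (12.75), BRRIdhan 29 (12.53), Oryza rufipogon (12.14), Nipponbare and Banikat (11.88), and of the 7 steps only that from Oryza latifolia to Pokkali had no overlap between arrays. For NCED3 at 0 mM the order ran from Oryza latifolia through Nipponbare (10.85), Banikat (9.62), IR58 (9.60), Oryza rufipogon (9.55), Pokkali (9.51) and PSBRc50 (9.28) to BRRIdhan 29 (9.14), and again only Oryza latifolia was apart from its neighbour. For 8'-hydroxylase 2 at 0 mM Pokkali (8.04) and Nipponbare (8.03) were highest, and the step from Oryza rufipogon (6.58) down to Oryza latifolia was the only one without overlap. At 120 mM the separated steps were those from Oryza latifolia to the next genotype for zeaxanthin epoxidase and NCED5, and from IR58 (7.59) to BRRIdhan 29 (5.80) for NCED4. For 8'-hydroxylases 1 and 3 no neighbours were separated at either level.

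Genotypes were also compared by their reputation for salt tolerance. The mean salt effect of the 4 tolerant and moderately tolerant genotypes was set against that of the 4 susceptible ones, with the genotype as the replicate. None of the 7 genes passed, as did 0% of all probes, so this comparison called nothing on the array. The largest difference was that of NCED5, 0.08 in the tolerant and -0.84 in the susceptible genotypes (difference 0.92, SE 0.67, adjusted p = 1.00, unadjusted p = 0.204). For NCED4 the means were 1.80 and 1.12 (difference 0.68, SE 1.19), and for 8'-hydroxylase 2 they were 1.02 and 1.00 (difference 0.02, SE 0.42).

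Other genes around the path were looked up from lists of known rice genes. None of 2 further NCED loci, 6 loci for steps beside or after NCED, 11 carotenoid precursor loci and 5 receptor loci with a probe (of 6 listed) passed for the mean salt effect over all arrays. The medians of these lists were -0.51, 0.14, -0.06 and -0.51, beside -0.01 over all probes. Of 12 loci known to respond to abscisic acid, 5 rose and none fell, with a median of 2.32, while 1.24% of all probes were called higher and 0.704% lower. The 5 were the group 3 LEA gene Os05g0542500 (4.24, SE 1.02, adjusted p = 0.0249), the dehydrin genes Os11g0454300 (4.10, SE 1.01, adjusted p = 0.0292) and Os11g0454200 (4.07, SE 1.03, adjusted p = 0.0321), the protein phosphatase 2C gene Os05g0572700 (2.37, SE 0.51, adjusted p = 0.0125) and Os09g0325700 (2.26, SE 0.49, adjusted p = 0.0125). LEA proteins and dehydrins protect cells during drying, and phosphatases of type 2C restrain the hormone's signal. The sets without Banikat and Nipponbare were chosen after the levels of Os11g0454300, 1 of these 12 loci, were seen. A rise of this list in such a set is therefore no independent evidence. Without the divergent arrays, Banikat and Nipponbare, where 22.9% of all probes passed, 10 of these 12 rose, with a median of 3.76. There 2 of 2 further NCED loci fell, with a median of -1.52, 1 of them well above background on only 15 of 46 arrays. In that set 1 of 6 loci for steps beside or after NCED rose and 1 fell, 2 of 11 carotenoid precursor loci rose and 1 of 5 receptor loci fell.

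The levels of the 7 genes were set against those of the dehydrin array by array, as a description and with no test. Over the 46 arrays, which share labelling, normalization and in part their slides, NCED4 correlated with Os11g0454300 at r = 0.72 and 8'-hydroxylase 2 at r = 0.53, or at 0.77 and 0.74 over the 40 arrays without Oryza latifolia. The other 5 genes lay between -0.34 and 0.27 over the 46 arrays. NCED4 and 8'-hydroxylase 2 correlated with each other at r = 0.72 (0.71 over 40 arrays), and the hydroxylases 1 and 3 at 0.51.

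**Figure D5:**
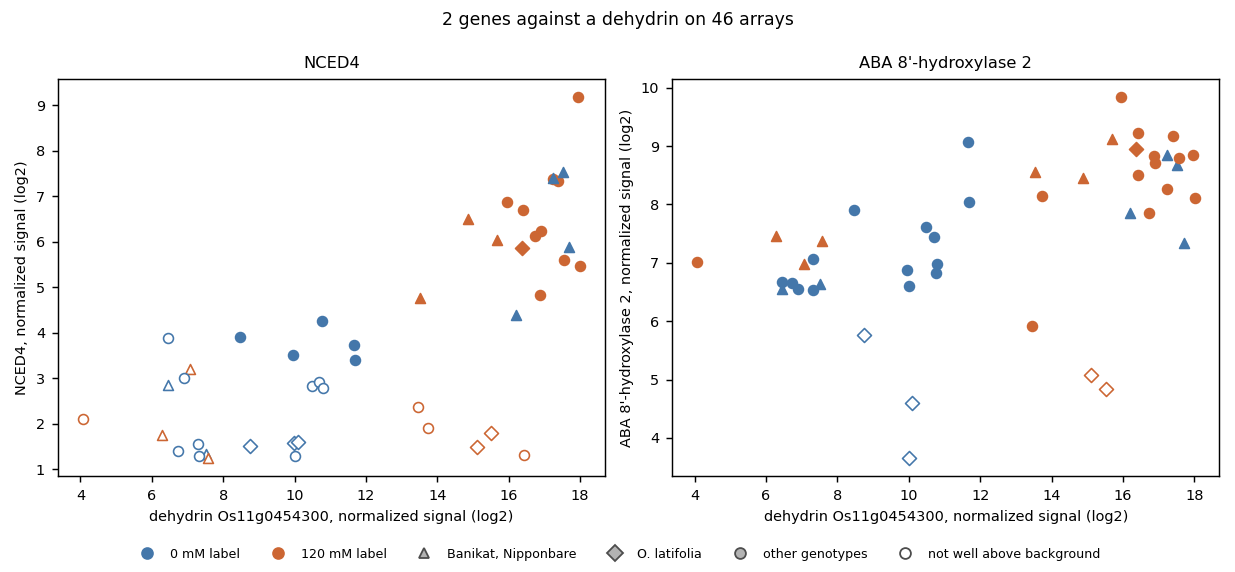
Normalized log2 signal of NCED4 (left) and 8'-hydroxylase 2 (right) against the dehydrin gene Os11g0454300 on 46 arrays, coloured by the salt level on the label; triangles are Banikat and Nipponbare, diamonds Oryza latifolia, and open symbols are not well above background. Replicates 1 and 2 labelled 0 mM in Banikat and Nipponbare lie with the stressed arrays of other genotypes on the horizontal axis, at 16.21 to 17.70.

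The probes most like each gene over the 46 arrays were named by Pearson's r among probes well above background on at least 23 of them. For 8'-hydroxylase 2 they were Os09g0272000 (r = 0.90), Os02g0824500 (0.89) and Os02g0644000 (0.89), with r of 0.79 to 0.81 over the 40 arrays without Oryza latifolia. For NCED4 they were Os08g0327700 (0.86), Os04g0610600 (0.85) and Os05g0138300 (0.85), and these kept 0.84 to 0.85 without that species. NCED3 was most like Os01g0519100 (0.84), the KELP coactivator-like gene Os01g0706000 (0.83) and the protein kinase gene Os11g0173800 (0.83), but these fell to between 0.46 and 0.64 once Oryza latifolia was left out. Zeaxanthin epoxidase was most like Os01g0764600 (0.80), Os12g0211400 (0.80) and Os03g0280800 (0.79), with 0.65 to 0.70 without that species. For NCED5 they were Os09g0458300 (0.71), osa-miR169j (0.70) and Os01g0110100 (0.69). For 8'-hydroxylase 1 the 3 probes were Os11g0207200 (0.72), Os05g0449200 (0.71) and Os03g0187400 (0.71), and for 8'-hydroxylase 3 they were Os05g0517200 (0.78), Os07g0558200 (0.71) and Os02g0744600 (0.70).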

How the data were processed

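Whole-seedling RNA was hybridised to one-colour 4 x 44K rice arrays, and the deposited scanner files (Agilent Feature Extraction 10.7.3.1) hold one intensity per spot, already background-subtracted by the authors' scanner software. The deposited value table holds log2 values that the authors quantile normalized, and it was used as an alternative only. Here log2 of the processed intensity of 43734 non-control spots was quantile normalized, outlier spots (0.146%) were left out, spots of a probe were averaged, and limma 3.58.1 (lmFit and eBayes, R 4.3.3) was fitted to 42477 probes on all 46 arrays, with a mean for each of the 16 groups and Benjamini-Hochberg adjustment over all probes (threshold 0.05). F tests compared genotypes. Precision rests on 2 or 3 arrays a group and 30 residual degrees of freedom. Arrays lay on 12 slides scanned on 6 days, and each slide held both salt levels.

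The 7 genes and all lists were chosen with earlier results of these data known. Every probe of the 7 loci is named, with the 3 probes most like each over 46 arrays and, of the other listed genes, those past the threshold. Gene names are those listed for the loci, and locus names of other genes come from the study's annotation. Each array held its own seedling, but nothing says that replicates were grown apart, so p-values measure the spread between these seedlings only. No array was a copy of another (highest correlation 0.988). The script was tested on simulated data of the same size. The alternatives were percentile scaling, normexp background correction, a filter on dim probes, replicate number, slide or scan day as a block, and leaving out replicates, genotypes or arrays.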

Additional observations from a re-analysis of the deposited data

Results flagged for a closer look

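In the set without the 8 arrays that correlate best with another genotype, the salt effects of 2 of the 7 genes differed between genotypes. The F test in limma covered 42226 probes, of which 13.6% passed. For NCED4 the adjusted p was 0.00678, with effects from -3.63 in Banikat to 6.03 in IR58, and for NCED5 it was 0.0251, with effects from -1.87 in Oryza rufipogon to 1.89 in Banikat. Over all 46 arrays, where 0.600% of all probes passed, the adjusted p was 0.827 and 0.314. Without the 8 arrays, Banikat and Nipponbare it was 1.00 and 0.760. In Banikat and Nipponbare the dehydrin gene Os11g0454300 also had its highest levels on arrays labelled 0 mM, and the part of these genotypes' labels in the NCED4 result was not tested further. In that set no array of IR58 at 0 mM or of Banikat at 120 mM was well above background for NCED4.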

How the results depend on the processing

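Of 24 alternatives, 4 were chosen after the data were seen, namely those that leave out the 8 divergent arrays, Banikat and Nipponbare together, both, or the divergent arrays and Oryza latifolia. The count of the 7 genes with a mean salt effect, 0 over all arrays, was 1 with scan day as a fixed effect, 2 without Banikat, 1 without Nipponbare, 2 without both cultivars, 3 without these and the divergent arrays, and 0 when each replicate number was left out. Counts over all probes moved too. They were 826 over all arrays and, in the same order, 1410, 4842, 2511, 6990, 9681 and 0 to 699. Among the 56 effects in single genotypes, 0 called over all arrays, the count was 2 without the divergent arrays, 1 without these, Banikat and Nipponbare, and 0 to 1 when a replicate number was left out. Of all effects over genotypes and probes, 0.513% passed over all arrays and 2.69% without the divergent arrays. For the difference between genotypes, 0 genes over all arrays, the count of genes was 2 without the divergent arrays, 1 without these and Oryza latifolia, and 0 to 2 when a replicate number was left out. Of all probes, 255 passed over all arrays and, in the same order, 5729, 6123 and 72 to 3761. For levels at 0 mM, 3 genes over all arrays, the count of genes was 5 with percentile scaling, 5 without Pokkali, 0 without Oryza latifolia, 0 without both wild species, 6 without the divergent arrays and 0 to 4 when a replicate number was left out. Of all probes, 26289 passed over all arrays and, in the same order, 27104, 25178, 3026, 2106, 31432 and 9122 to 26275. For levels at 120 mM, also 3 genes, the count of genes was 0 without Oryza latifolia, 0 without both wild species, 6 without the divergent arrays, 6 without these, Banikat and Nipponbare, 1 without these and Oryza latifolia, and 0 to 2 when a replicate number was left out. Of all probes, 17079 passed over all arrays and, in the same order, 2982, 1890, 28965, 26220, 11278 and 149 to 18244.

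Calls of the mean effect were gained by NCED4 without Banikat (1.79), without Banikat and Nipponbare (2.28) and without these and the divergent arrays (2.54), by NCED3 in the last set (0.70), and by 8'-hydroxylase 2 with scan day as a fixed effect (1.06), without Banikat (1.06), without Nipponbare (1.16), without both (1.24) and without these and the divergent arrays (1.12). The sign of small effects turned. Zeaxanthin epoxidase was at 0.018 without the divergent arrays and at 0.025 without these and Oryza latifolia. The 8'-hydroxylase 1 was at -0.041 with percentile scaling, -0.10 without Pokkali, -0.0482 without PSBRc50, -0.0483 without Banikat, -0.077 without Nipponbare and -0.22 without both cultivars. The 8'-hydroxylase 3 was at -0.0093 with normexp, -0.0010 with the authors' processed values, -0.027 without PSBRc50, -0.23 without Banikat, -0.044 without Nipponbare, -0.33 without both cultivars and -0.16 without these and the divergent arrays. With replicate numbers left out in turn, effects ranged from -0.35 to 0.052 for zeaxanthin epoxidase, from -0.57 to 0.50 for 8'-hydroxylase 1, from -0.34 to 0.23 for 8'-hydroxylase 3, from 1.33 to 1.56 for NCED4 and from 0.82 to 1.30 for 8'-hydroxylase 2. The lowest values of these 2 genes over all alternatives came with normexp, 0.52 for each against 1.46 and 1.01, and normexp also ended the call of 8'-hydroxylase 2 for its level at 0 mM (adjusted p = 0.418). The causes were not tested, beyond fewer arrays where some were left out.

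Pairing of arrays by replicate number was weak and uneven. Of 22 same-numbered pairs, 21 of them on a shared slide, 8 had a correlation of deviations over 0.1 (median 0.072, range -0.034 to 0.46). The replicate block left all counts of calls for the 7 genes as they were, with NCED4 at 1.46 (adjusted p = 0.107) and 8'-hydroxylase 2 at 1.01 (adjusted p = 0.0596). The count of all probes with a mean salt effect, 826, was 1163 with that block, 2 without both wild species and 0 without replicate 1, and the 5 called genes known to respond to abscisic acid lost their call in 7 to 10 of 24 alternatives. Percentile scaling moved the median of all probes by 0.11. Tests of level with slide or scan day as a fixed effect could not be fitted, and the comparison by tolerance was not run where genotypes were left out. Detection limits NCED4 in particular, which was well above background on 23 of 46 arrays.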
